A study of Rattus norvegicus with 72 samples.

Results

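The pregnant mammary gland was compared with adipose tissue of the same pregnant rats, using the 5 mammary arrays and the 5 adipose arrays of the standard gravity condition, 10 of the 72 arrays of the series. Members were chosen by the sample labels alone: pregnant, standard gravity, mammary gland or adipose tissue, joined by the rat code in the array name (M42S and A42S, M44S and A44S, M48S and A48S, M52S and A52S, M57S and A57S, where M is mammary gland, A adipose tissue and S standard gravity). The series profiled 3 tissues (mammary gland, adipose tissue, liver) in pregnancy and lactation, under standard, increased or reduced gravity, on Affymetrix arrays, which read each transcript with sets of short probes. Further groups used here were mammary gland and adipose tissue of 5 other pregnant rats kept in hypergravity, mammary gland and adipose tissue of 5 lactating rats at standard gravity, and the livers of the 5 pregnant rats at standard gravity. No genotype, strain, age, day of pregnancy or fat depot is given in the sources used here, and the labels name no allele, drug or surgery in any of these groups. Codes that recur in the 3 tissues were taken as animals. If they were not, p-values measure only the spread between these arrays.

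The mammary gland is a branched epithelium set in a fat pad. During pregnancy prolactin, progesterone and placental hormones drive the epithelium to divide and to form alveoli, in which luminal cells make milk and contractile myoepithelial cells surround them. White adipose tissue stores triacylglycerol in adipocytes under the control of insulin and catecholamines, and visceral depots are covered by mesothelium. Since the mammary fat pad holds adipocytes as well, both tissues share that cell type, and in bulk RNA fewer cells of a type and less RNA per cell cannot be told apart.

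Array values are log2 signals, so 1 unit is a 2-fold step, and the array medians lay between 4.47 and 4.55. Detection calls were not used here, so a fold against a level under these medians is approximate. RNA was isolated with TRIzol from mammary gland and with a lipid tissue kit from adipose tissue, so tissue and extraction method cannot be told apart in any difference given here. The 6 milk protein genes averaged 11.96 to 12.18 in the mammary arrays and 2.88 to 3.10 in the adipose arrays. The 18 adipocyte genes averaged 7.79 to 8.55 in the mammary arrays and 10.01 to 11.10 in the adipose arrays. Both tissue labels therefore matched their markers. Several arrays carried markers of other cells. A list of 19 hepatocyte genes averaged 6.01 in M52S and 4.95 in M57S, against 3.34 to 3.44 in the other 3 mammary arrays. A list of 23 skeletal muscle genes averaged 12.005 in A48S, against 3.84 to 4.10 in the other 4 adipose arrays. Smooth muscle genes of the myoepithelial list brought its mean to 7.68 in A44S, against 4.21 to 5.84 in the other 4 adipose arrays, and A42S had the highest adipose mean of the lymphocyte list at 6.05, against 4.03 to 4.67 in the others. Results are given with all 10 arrays, and counts of gene lists that moved by more than 1.5 times without M52S, M57S and A48S or without 1 rat are given beside them. The part of these markers in other results was not tested.

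**Figure D1:**
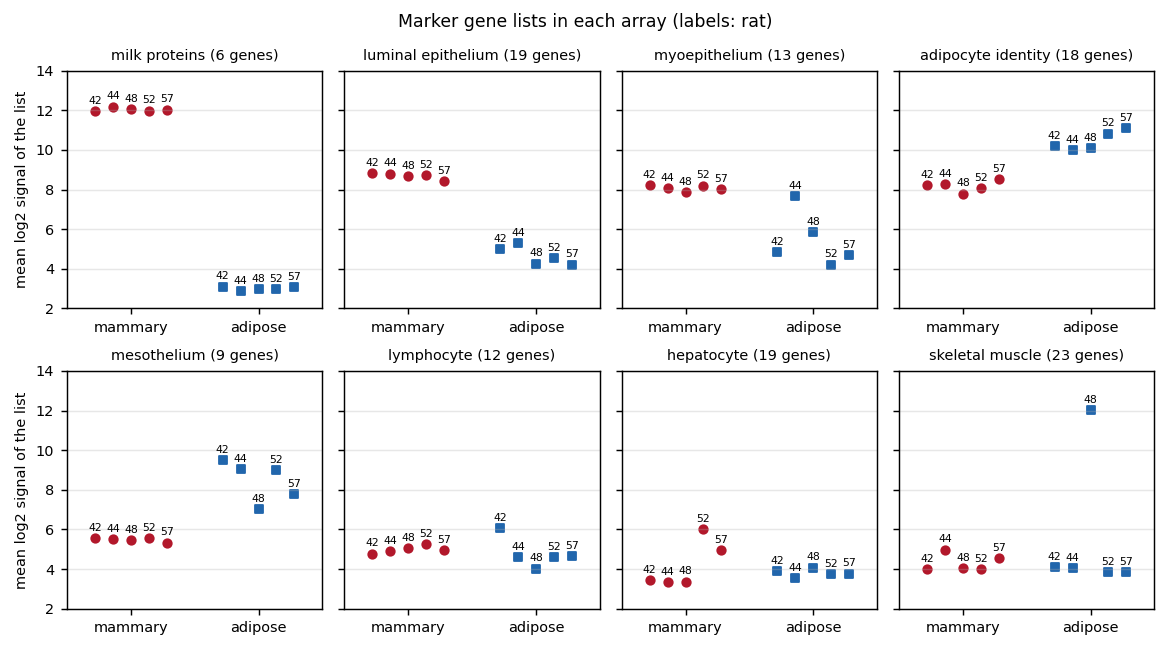
Mean log2 signal of 8 marker gene lists (vertical axis) in each mammary array (circles, left) and adipose array (squares, right), with points labelled by rat. The milk protein, luminal and adipocyte lists separate the tissues in every rat. The hepatocyte list is raised in the mammary arrays of rats 52 and 57, the muscle list in the adipose array of rat 48 and the myoepithelial list in the adipose array of rat 44.

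The comparison asks which transcripts distinguish the pregnant gland from adipose tissue of the same animal. The 12 largest increases in mammary gland included the caseins and other milk protein genes, and the 12 largest decreases included Wt1 and Gpm6a of the mesothelial list and Adrb3 and Slc2a4 of the adipocyte list. With the rat as a block, 10102 of 31042 probe sets (32.5%) passed the test (limma, adjusted p under 0.05), 5311 (17.1%) higher and 4791 (15.4%) lower in mammary gland. Of the probe sets with a single symbol the brightest stands for its gene, which gave 14217 genes. Of these genes 5637 (39.6%) were called, 3533 (24.9%) higher and 2104 (14.8%) lower in mammary gland, and the median difference of all genes was 0.05 log2 units. Every mammary array lay above every adipose array for 2815 genes (19.8%), and every adipose array lay above every mammary array for 1445 genes (10.2%). The extremes were uneven. There were 78 genes (0.549%) called at least 5 log2 units higher in mammary gland and 863 (6.07%) at least 2 units higher, while 449 (3.16%) were at least 2 units lower and 4 genes (0.0281%), Wt1, Tm4sf4, Chst4 and Grifin, at least 5 lower. Without M52S, M57S and A48S, 8354 probe sets were called, 4413 higher and 3941 lower. This repeat, here and below, took the rat as a random block, unlike the main fit, which took it as a fixed block. With all 10 arrays the random block called 10945, 5748 higher and 5197 lower. With each array scaled on its ribosomal protein genes 10182 probe sets were called, 4191 higher and 5991 lower, and the median over all probe sets moved to -0.20, against -0.04 as deposited.

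The 12 genes with the largest excess in mammary gland were Csn1s1, Csn3, Csn2, Wap, Prr27, Glycam1, Lalba, Pigr, Olah, Clca1, Krt5 and Igsf5, with log2 differences between 7.91 (Igsf5, SE 0.20, adjusted p = 4.05e-06) and 10.14 (Csn1s1, SE 0.16, adjusted p = 6.62e-07). The 12 with the largest deficit were Wt1, Tm4sf4, Chst4, Grifin, Adrb3, Gpm6a, Id3, Tmem182, Rcan2, Sncg, Slc2a4 and Wfdc21, with log2 differences between -4.60 (Wfdc21, SE 0.48, adjusted p = 0.000766) and -7.42 (Wt1, SE 0.42, adjusted p = 8.97e-05). Only called genes without overlap of the groups could be among these 24, so their lack of overlap is no separate result. All 24 stayed called in each repeat that left out 1 rat and in the repeat without M52S, M57S and A48S.

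Values per array are given below in the order of rats 42, 44, 48, 52 and 57. Glycam1, a mucin-like glycoprotein of rodent milk and of lymph node vessels, had log2 signals of 13.18, 13.12, 13.12, 13.29 and 13.14 in mammary gland, against 4.91, 3.16, 3.76, 3.60 and 3.54 in adipose tissue. A42S was the highest adipose array, still more than 8 log2 units under any mammary array (log2 difference 9.37, SE 0.25, adjusted p = 4.96e-06). Prr27, a proline-rich secreted protein gene, had 12.03, 12.43, 12.16, 12.21 and 12.40 in mammary gland, against 2.76, 2.53, 2.91, 2.63 and 2.56 in adipose tissue, a log2 difference of 9.57 (SE 0.16, adjusted p = 7.37e-07). Clca1, a secreted regulator of chloride channels in mucous epithelia, had 10.999, 11.20, 11.34, 11.06 and 11.07 in mammary gland, against 2.71, 2.89, 3.24, 3.09 and 2.76 in adipose tissue, a log2 difference of 8.20 (SE 0.13, adjusted p = 6.62e-07). Igsf5, a junctional adhesion protein gene, had 11.08, 11.65, 11.43, 11.47 and 11.63 in mammary gland, against 3.35, 4.33, 3.68, 3.28 and 3.08 in adipose tissue. The livers of the same rats averaged 10.35 for Igsf5 and 2.95 for Clca1, and M52S and M57S did not stand apart from the other mammary arrays for either gene.

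Several genes of the opposite extreme ranked alike across the adipose arrays. Tm4sf4, a tetraspanin-like membrane protein gene, had 2.53, 3.00, 3.16, 4.74 and 3.87 in mammary gland, against 10.44, 9.99, 6.90, 9.81 and 7.85 in adipose tissue (log2 difference -5.54, SE 0.64, adjusted p = 0.00111). Chst4, a sulfotransferase gene, had 2.66, 2.58, 2.61, 2.62 and 2.52 in mammary gland, against 9.17, 8.69, 5.87, 8.33 and 6.87 in adipose tissue (log2 difference -5.19, SE 0.48, adjusted p = 0.000486). For both genes A42S was the highest and A48S the lowest adipose array. M52S, the array with the most hepatocyte signal, was the highest mammary array for Tm4sf4, whose liver mean was 11.15. Without M52S, M57S and A48S its log2 difference was -6.69.

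Grifin, a galectin-related gene known from the lens, had 5.16, 4.62, 4.01, 4.52 and 5.32 in mammary gland, against 10.51, 9.04, 8.22, 9.85 and 11.42 in adipose tissue (log2 difference -5.08, SE 0.29, adjusted p = 8.96e-05). Sncg, the gamma-synuclein gene, abundant in adipocytes and neurons, had 7.78, 7.14, 5.66, 7.72 and 7.68 in mammary gland, against 11.99, 11.49, 10.80, 12.52 and 12.74 in adipose tissue (log2 difference -4.71, SE 0.19, adjusted p = 2.58e-05). For both genes rat 48 was the lowest and A57S the highest adipose array. Id3, an inhibitor of helix-loop-helix factors, had 6.16, 4.34, 3.46, 3.85 and 3.62 in mammary gland, against 10.21, 10.09, 7.47, 9.14 and 8.73 in adipose tissue, with rat 42 the highest in both tissues (log2 difference -4.84, SE 0.29, adjusted p = 0.000115). Rcan2, a regulator of calcineurin, differed by -4.79 log2 units and Tmem182, a membrane protein gene of muscle and fat, by -4.83. A48S, the array with muscle markers, was the highest adipose array for Tmem182 at 9.41, against 6.91 in the lowest adipose array, and without M52S, M57S and A48S the difference of Tmem182 was -4.44.

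**Figure D2:**
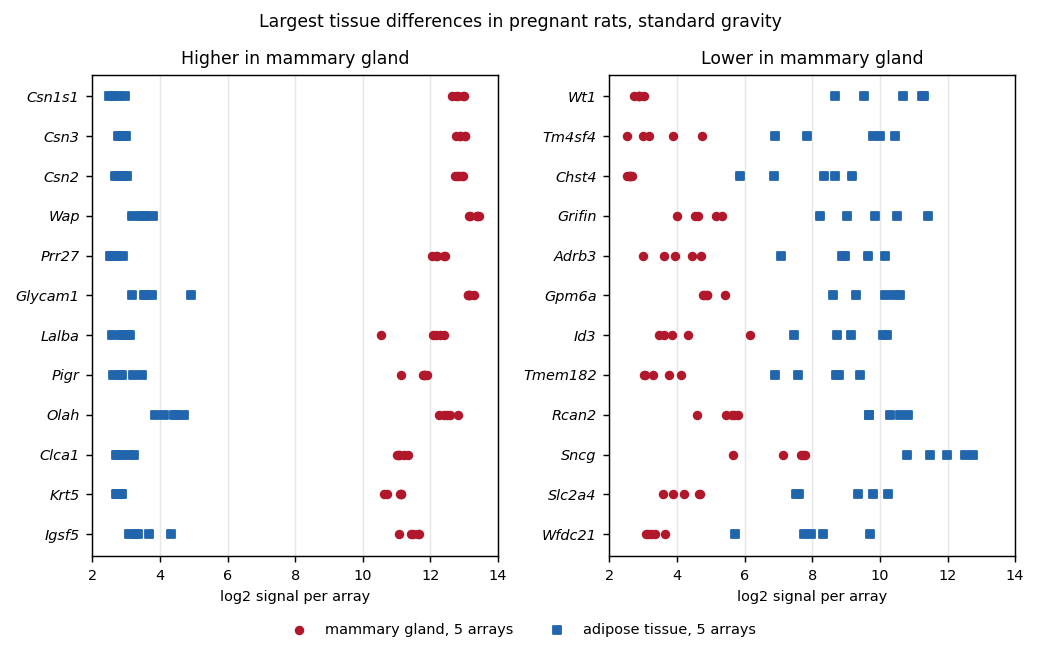
Log2 signal of the 12 genes with the largest excess in mammary gland (left panel) and the 12 with the largest deficit (right panel), 1 point per array, circles for mammary gland and squares for adipose tissue. Adipose values of the milk genes lie near the low end of the scale, while adipose values of the genes on the right spread over several log2 units.

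Milk protein genes separated the tissues most. All 6 milk protein genes with a probe set were called higher in mammary gland, beside 24.9% of all genes. Their median log2 difference was 9.91, against 0.05 over all genes. Csn2, which encodes beta-casein, had log2 signals of 12.78, 12.97, 12.84, 12.72 and 12.94 in mammary gland, against 2.92, 2.66, 3.02, 2.75 and 2.78 in adipose tissue. The mammary values were nearly equal across rats, and the adipose values were under the array medians. The log2 difference of Csn2 was 10.02 (SE 0.14, adjusted p = 6.60e-07).

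Csn1s1, the gene of alpha-S1-casein, had 12.63, 12.95, 12.82, 12.75 and 12.98 in mammary gland, against 2.97, 2.59, 2.74, 2.61 and 2.51 in adipose tissue. Csn3, the gene of the micelle-stabilising kappa-casein, had 12.74, 13.04, 12.87, 12.87 and 13.03 in mammary gland, against 2.92, 2.95, 2.76, 2.98 and 2.83 in adipose tissue, a log2 difference of 10.02 (SE 0.13, adjusted p = 6.60e-07). Wap, the whey acidic protein gene of rodent milk, had 13.37, 13.43, 13.39, 13.18 and 13.15 in mammary gland, against 3.80, 3.19, 3.55, 3.57 and 3.40 in adipose tissue, a log2 difference of 9.80 (SE 0.15, adjusted p = 6.62e-07). None of the 3 had overlapping groups, which the choice of the 12 largest required.

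Lalba encodes alpha-lactalbumin, the subunit that turns a galactosyltransferase into lactose synthase. Its log2 signals were 12.16, 12.41, 12.07, 12.27 and 10.53 in mammary gland, against 3.12, 2.84, 3.05, 2.90 and 2.60 in adipose tissue. M57S was the lowest mammary array by a wide margin and still far above the adipose arrays, and the log2 difference was 8.99 (SE 0.25, adjusted p = 5.25e-06). Lpo, the gene of the antibacterial milk enzyme lactoperoxidase, differed by 5.27 log2 units, with 8.50 ± 0.60 in mammary gland and 3.23 ± 0.60 in adipose tissue (SD, n = 5 each).

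The promoters of Csn1s1 and Csn2 are shown because these are the 2 of the 6 milk protein genes whose start region holds TTCNNNGAA, the spaced palindrome that STAT5, the transcription factor activated by prolactin, recognises. The sequences are from RefSeq on GRCr8 and run from 250 bases before to 50 bases after the gene start, with the motif in capitals. Csn1s1 lies at chr14:20638800-20639099 on the minus strand and Csn2 at chr14:20601574-20601873 on the plus strand.
Csn1s1: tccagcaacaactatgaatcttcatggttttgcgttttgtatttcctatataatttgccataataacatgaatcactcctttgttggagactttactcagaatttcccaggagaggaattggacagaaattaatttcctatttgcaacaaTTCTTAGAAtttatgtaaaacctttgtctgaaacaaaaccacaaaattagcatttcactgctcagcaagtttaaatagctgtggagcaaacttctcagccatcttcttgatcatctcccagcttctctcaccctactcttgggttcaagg
Csn2: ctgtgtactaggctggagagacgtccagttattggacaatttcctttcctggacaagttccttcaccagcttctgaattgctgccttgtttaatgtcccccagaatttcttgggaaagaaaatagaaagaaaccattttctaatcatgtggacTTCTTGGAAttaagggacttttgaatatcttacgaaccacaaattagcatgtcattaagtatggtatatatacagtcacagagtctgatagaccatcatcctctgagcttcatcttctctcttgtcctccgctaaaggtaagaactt
Counted from the gene start, the motif begins at base -100 in Csn1s1 (TTCTTAGAA) and at base -97 in Csn2 (TTCTTGGAA). The motif is its own reverse complement, so a search of one strand covers both. It is present in 2970 of 33469 promoters of the same length in the table (8.87%), and in none of the windows of Csn3, Wap, Lalba and Lpo. A match describes these letters and shows no binding.

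Genes of milk fat secretion were mostly higher as well. Of 13 genes of the milk fat globule and its secretion 9 were higher and 2 lower, beside 24.9% and 14.8% of all genes. The lower count was 1 without rat 52 or rat 57, and the median log2 difference of the list was 1.94. Olah encodes the thioesterase that releases medium-chain fatty acids from fatty acid synthase in the gland. Its log2 signals were 12.41, 12.83, 12.25, 12.58 and 12.49 in mammary gland, against 4.11, 4.41, 4.70, 4.47 and 3.85 in adipose tissue, a log2 difference of 8.20 (SE 0.18, adjusted p = 2.85e-06). The groups lay far apart in every rat.

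Fabp3, the fatty acid binding protein of mammary epithelium and muscle, had 12.33, 11.76, 12.05, 12.04 and 11.73 in mammary gland, against 5.08, 4.73, 9.76, 4.59 and 5.61 in adipose tissue. The high adipose value belongs to A48S, the array with skeletal muscle markers, and without M52S, M57S and A48S the log2 difference was 7.05, against 6.03 with all arrays (adjusted p = 4.79e-06 and 0.00141). Slc34a2, a phosphate transporter of the luminal membrane, differed by 6.80 log2 units and Muc1, the mucin of the milk fat globule membrane, by 5.57. Mfge8, the lactadherin gene, differed by 4.31, Plin2, which coats lipid droplets, by 1.94, and Xdh, the oxidoreductase of the globule membrane, by 1.56 log2 units.

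The lower members were Cidea and Cd36. Cidea, a lipid droplet protein of brown fat and of the lactating gland, had 7.16, 6.72, 6.24, 6.19 and 5.31 in mammary gland, against 8.79, 7.76, 7.94, 9.74 and 9.89 in adipose tissue. Every mammary array was under every adipose array, and the log2 difference was -2.50 (SE 0.53, adjusted p = 0.0112). Cd36, a fatty acid transporter, differed by -1.49 log2 units (adjusted p = 0.0337), and its adjusted p was 0.0967 without rat 44, 0.111 without rat 52 and 0.0819 without rat 57. Folr1, a folate receptor secreted into milk, was dim in both tissues (3.73 ± 0.53 in mammary gland and 3.84 ± 1.31 in adipose tissue, SD, n = 5 each) and was not called.

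Markers of luminal epithelium were higher almost throughout. Of the 19 genes 16 were higher in mammary gland and 0 were lower, beside 24.9% and 14.8% of all genes. Their median log2 difference was 4.06. Without M52S, M57S and A48S 16 were higher and 0 lower. The list averaged 8.42 to 8.84 in the mammary arrays and 4.21 to 5.30 in the adipose arrays.

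Epcam, an adhesion molecule of epithelial cells, had 10.88, 11.02, 10.94, 10.92 and 10.42 in mammary gland, against 3.28, 5.12, 3.20, 3.23 and 3.45 in adipose tissue. A44S was the highest adipose array, and the log2 difference was 7.18 (SE 0.29, adjusted p = 2.87e-05). Esrp1, a splicing regulator restricted to epithelia, had 10.94, 11.01, 11.39, 11.12 and 10.63 in mammary gland, against 2.98, 4.01, 3.33, 3.12 and 3.40 in adipose tissue, a log2 difference of 7.65 (SE 0.21, adjusted p = 4.96e-06). Keratins of simple epithelia were also called. Krt18 had 11.87, 11.63, 11.58, 11.46 and 10.82 in mammary gland, against 7.66, 7.53, 4.10, 6.00 and 5.57 in adipose tissue, and its log2 difference was 5.30 (SE 0.48, adjusted p = 0.000468). Its partner Krt8 had 9.99, 10.63, 10.10, 10.07 and 10.15 in mammary gland, against 7.02, 6.44, 5.08, 6.66 and 5.80 in adipose tissue, a log2 difference of 3.99 (SE 0.30, adjusted p = 0.000253). For both keratins A42S was the highest and A48S the lowest adipose array, and no adipose array reached a mammary one.

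Krt19, a keratin shared by luminal cells and mesothelium, had 11.56, 11.44, 11.12, 11.83 and 8.26 in mammary gland, against 11.07, 9.68, 7.36, 8.76 and 6.86 in adipose tissue. The groups overlapped, since M57S was low and A42S high. Its log2 difference was 2.09 (SE 0.47, adjusted p = 0.0140), with an adjusted p of 0.0532 without rat 52 and of 0.0876 without M52S, M57S and A48S. Krt7, Elf3 and Kit were not called. Krt7 had a log2 signal of 5.08 ± 0.52 in mammary gland and 5.53 ± 1.30 in adipose tissue (SD, n = 5 each).

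Of 20 genes of tight and adherens junctions and desmosomes, 14 were higher and 1 lower, beside 24.9% and 14.8% of all genes. Their median log2 difference was 2.07, and 0 were lower without rat 42, 44, 52 or 57. Ocln, Cldn3, Cldn4, Cldn7, Cldn8 and Cdh1 are counted in the luminal list as well. Cdh1, the gene of E-cadherin, had 10.08, 10.62, 9.87, 9.997 and 10.51 in mammary gland, against 3.37, 6.35, 3.26, 3.35 and 2.86 in adipose tissue. A44S stood apart above the other adipose arrays, and the log2 difference was 6.38 (SE 0.45, adjusted p = 0.000198). Cldn8, a claudin that tightens the barrier to ions, differed by 7.22 log2 units, Cldn3 by 4.73, Cgn, which links junctions to the cytoskeleton, by 4.28, and Ocln, the occludin gene, by 4.05. The vascular claudin Cldn5 was not called, with a log2 signal of 7.48 ± 0.32 in mammary gland and 7.59 ± 1.05 in adipose tissue (SD, n = 5 each).

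Of 19 basement membrane genes and their receptors, 7 were higher and 4 lower in mammary gland, beside 24.9% and 14.8% of all genes. The counts were 7 higher and 4 lower without M52S, M57S and A48S. The higher members were the laminin chains Lama1 (4.52 log2 units), Lamb3 (2.18), Lama5 (2.13) and Lama3 (0.97) and the hemidesmosome genes Itgb4 (3.43), Col17a1 (2.39) and Itga6 (1.22). The lower members were Lama4 (-1.92 log2 units), a laminin chain of adipocytes and vessels, Hspg2 (-1.79), which encodes perlecan, Nid1 (-1.57) and Lamc1 (-1.13). Lama1 had 6.94, 8.38, 8.05, 7.93 and 7.69 in mammary gland, against 3.50, 3.34, 3.48, 2.95 and 3.12 in adipose tissue, and Lama4 had 7.07, 6.88, 6.36, 6.52 and 6.46 in mammary gland, against 8.24, 8.76, 8.10, 8.81 and 9.01 in adipose tissue. Neither gene had overlapping groups.

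Basal keratins marked the myoepithelial list. Of its 13 genes 8 were higher in mammary gland and 0 were lower, beside 24.9% and 14.8% of all genes. Their median log2 difference was 3.13. The basal keratin Krt5 had 10.72, 11.12, 10.64, 11.13 and 11.11 in mammary gland, against 2.88, 2.74, 2.79, 2.69 and 2.85 in adipose tissue, a log2 difference of 8.16 (SE 0.15, adjusted p = 1.44e-06). Krt14 differed by 4.80 log2 units, Krt17 by 3.90 and Tp63, the transcription factor of basal cells, by 4.15. The contractile members varied with A44S. Actg2, an actin of smooth muscle, had 9.23, 9.30, 8.67, 9.38 and 8.36 in mammary gland, against 2.98, 11.55, 3.97, 2.62 and 2.86 in adipose tissue. A44S was the highest of the 10 arrays, and the other adipose arrays were dim. The log2 difference of Actg2 was 4.19 (SE 1.27, adjusted p = 0.0436), with an adjusted p of 0.116 without rat 42, 0.0921 without rat 48, 0.137 without rat 52 and 0.118 without rat 57. The count of called members was 4 without rat 42, without rat 52, without rat 57 and without M52S, M57S and A48S, and 11 without A44S alone, a repeat chosen after seeing the data.

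Of 23 genes in the list of epithelial transcription factors 12 were higher and 0 lower in mammary gland, beside 24.9% and 14.8% of all genes. The median log2 difference of the list was 0.98, and its lower count was 1 without rat 42 or rat 48. Elf5, the ETS factor that specifies alveolar luminal cells, had 11.35, 10.53, 10.61, 10.45 and 10.34 in mammary gland, against 3.11, 3.12, 3.01, 3.90 and 2.80 in adipose tissue. M42S was the highest mammary array, and the log2 difference was 7.46 (SE 0.24, adjusted p = 1.05e-05). Sox10, a factor of mammary progenitor cells and of Schwann cells, had 8.39, 9.49, 9.34, 9.34 and 8.68 in mammary gland, against 2.54, 3.07, 3.44, 2.92 and 2.58 in adipose tissue, a log2 difference of 6.14 (SE 0.15, adjusted p = 3.62e-06). The AP-2 factors Tfap2c (5.63 log2 units), Tfap2b (4.98) and Tfap2a (2.88) were all called higher, as were Grhl1 (4.23), Spdef (4.06) and Gata3 (2.77).

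Irx3, an Iroquois homeobox gene of the list of positional genes, had 10.70, 10.65, 10.86, 10.57 and 10.76 in mammary gland, against 3.41, 3.36, 3.82, 3.55 and 3.08 in adipose tissue. Its mammary arrays were nearly equal and none of the adipose arrays came near them, and the log2 difference was 7.27 (SE 0.15, adjusted p = 1.86e-06). The neighbouring Irx5 differed by 1.85 log2 units (adjusted p = 0.000643). Of the 28 positional genes 2 were higher and 6 lower, beside 24.9% and 14.8% of all genes. Hoxc4 (-2.69 log2 units) and Hoxa5 (-1.76) were among the lower ones. The count of lower genes was 3 without rat 52 and 12 when all 60 arrays shared 1 fit of group means.

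Prolactin acts through its receptor Prlr and STAT5, and ovarian steroids act through Esr1 and Pgr. Prlr had 8.34, 7.25, 6.18, 6.32 and 6.48 in mammary gland, against 5.27, 5.67, 6.11, 7.44 and 4.85 in adipose tissue. The groups overlapped through A52S, and Prlr was not called (log2 difference 1.05, SE 0.56, adjusted p = 0.214). Esr1 and Pgr were under the array medians in all 10 arrays, at 2.52 to 2.74 and 2.82 to 3.64 in mammary gland and at 2.66 to 4.04 and 2.65 to 3.97 in adipose tissue, and neither was called.

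Stat5a had 9.75, 8.86, 7.97, 8.56 and 8.59 in mammary gland, against 7.60, 7.41, 7.43, 8.42 and 7.97 in adipose tissue. M48S lay under A52S, so the groups overlapped. Its log2 difference was 0.98 (SE 0.30, adjusted p = 0.0459), and its adjusted p was 0.0877 without rat 42, 0.139 without rat 44, 0.0578 without rat 48 and 0.0770 without rat 57. Stat5b differed by 1.59 log2 units (SE 0.21, adjusted p = 0.00186). Of 26 hormone and growth factor receptors, 2 were higher and 5 lower, beside 24.9% and 14.8% of all genes. Their median log2 difference was -0.02, and 1 was higher without rat 44 or rat 52. The higher ones were Erbb2 and Vdr, the vitamin D receptor, which differed by 0.58 log2 units (adjusted p = 0.0265), with an adjusted p of 0.0791 without rat 42, 0.0816 without rat 44, 0.0637 without rat 52 and 0.0613 without rat 57. Erbb2, a receptor of the EGF family, had 5.54, 5.29, 5.29, 5.09 and 4.71 in mammary gland, against 3.69, 3.32, 3.57, 3.38 and 3.04 in adipose tissue, a log2 difference of 1.79 (SE 0.12, adjusted p = 0.000198). The lower receptors included the growth hormone receptor Ghr (-2.69 log2 units), the adiponectin receptor Adipor2 (-2.70) and the insulin receptor Insr (-1.07).

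Of 28 ligands 6 were higher and 6 lower, beside 24.9% of all genes called higher and 14.8% called lower. Wnt5b had 6.39, 7.31, 7.39, 6.87 and 6.74 in mammary gland, against 4.15, 4.55, 3.63, 3.77 and 4.32 in adipose tissue (log2 difference 2.86, SE 0.24, adjusted p = 0.000346). Igf1, the growth factor through which growth hormone acts, had 9.14, 8.55, 8.39, 8.94 and 8.88 in mammary gland, against 11.72, 11.89, 10.92, 11.75 and 11.80 in adipose tissue (log2 difference -2.83, SE 0.16, adjusted p = 9.18e-05). Neither pair of groups overlapped. Of 8 IGF binding protein genes 4 were lower and 0 higher, with Igfbp3 at -2.97 log2 units (SE 0.17, adjusted p = 0.000101).

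Adipocyte genes were lower in mammary gland, by 1 to 5 log2 units for most. Of 18 genes 15 were lower in mammary gland and 0 were higher, beside 14.8% and 24.9% of all genes. Their median log2 difference was -2.32. The count of lower genes was 15 in each of the 22 repeats of the fit with other arrays or settings. Adipoq, the gene of the hormone adiponectin, had 11.39, 11.48, 10.39, 11.22 and 11.97 in mammary gland, against 12.49, 12.80, 12.39, 12.84 and 12.66 in adipose tissue. Both tissues were near the top of the scale, without overlap, and the log2 difference was -1.34 (SE 0.21, adjusted p = 0.00325). Fabp4, the fatty acid binding protein of adipocytes, had 11.86, 10.33, 10.16, 10.11 and 10.61 in mammary gland, against 12.56, 12.59, 12.26, 12.71 and 12.76 in adipose tissue, a log2 difference of -1.96 (SE 0.28, adjusted p = 0.00229). M42S was the highest mammary array, above 11 while the other 4 were between 10 and 11.

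Plin1, which guards the adipocyte lipid droplet, had 9.80, 9.84, 8.67, 9.30 and 10.33 in mammary gland, against 11.85, 11.96, 11.63, 11.998 and 12.16 in adipose tissue, a log2 difference of -2.33 (SE 0.20, adjusted p = 0.000388). Pparg, the master regulator of adipocyte differentiation, had 5.89, 6.32, 6.17, 5.97 and 6.56 in mammary gland, against 8.97, 7.83, 7.99, 9.83 and 10.10 in adipose tissue, a log2 difference of -2.76 (SE 0.38, adjusted p = 0.00207). Its partner Cebpa differed by -1.22 log2 units, with 10.45 ± 0.40 in mammary gland and 11.66 ± 0.30 in adipose tissue (SD, n = 5 each). Glucose and glycerol transporters differed more. Slc2a4, the insulin-responsive transporter GLUT4, had 4.65, 4.21, 3.60, 3.88 and 4.67 in mammary gland, against 7.61, 7.52, 9.80, 9.36 and 10.26 in adipose tissue, a log2 difference of -4.71 (SE 0.52, adjusted p = 0.000905). The mammary values were near or under the array medians, and A48S, the array with muscle markers, was the second highest adipose array. Aqp7, the channel through which adipocytes release glycerol, differed by -4.13 log2 units and Cidec, a droplet fusion protein, by -3.49.

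Acsl1, Thrsp and Lep were not called. Acsl1, which activates long-chain fatty acids, had 12.21 ± 0.21 in mammary gland and 12.19 ± 0.31 in adipose tissue, and Thrsp, a regulator of fatty acid synthesis, had 11.94 ± 0.11 in mammary gland and 11.57 ± 0.76 in adipose tissue (SD, n = 5 each). For each of these genes 1 of its 3 probe sets was called lower in mammary gland, so the probe sets disagreed. The probe set of Lep, the leptin gene, was dim in every array, at 2.94 to 3.20 in mammary gland and 2.73 to 4.22 in adipose tissue.

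Genes of lipolysis and its hormonal control were mostly lower in mammary gland. Of 17 genes 12 were lower and 0 were higher (1 higher without rat 57), beside 14.8% and 24.9% of all genes. Their median log2 difference was -1.93. Adrb3, the beta3-adrenergic receptor through which catecholamines start lipolysis in rodent fat, had 2.98, 4.45, 3.95, 3.61 and 4.70 in mammary gland, against 8.96, 8.87, 7.07, 9.65 and 10.14 in adipose tissue. Every adipose array was above every mammary array by more than 2 log2 units, and the log2 difference was -5.00 (SE 0.44, adjusted p = 0.000409). Genes of the opposing, antilipolytic arm were lower as well: Pde3b, the phosphodiesterase that insulin activates, differed by -3.96 log2 units, and Ptger3, a receptor for prostaglandin E2, by -3.40. Lipe, the hormone-sensitive lipase, differed by -2.85 log2 units (SE 0.32, adjusted p = 0.000994). Pnpla2, which encodes the lipase of the initial step, was not called, with a log2 difference of -0.92 (adjusted p = 0.0596). G0s2, its inhibitor, had 12.01 ± 0.42 in mammary gland and 10.70 ± 1.28 in adipose tissue (SD, n = 5 each) and was not called (adjusted p = 0.0608).

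Of 19 genes of fatty acid synthesis 5 were higher and 2 lower in mammary gland, shares near the 24.9% and 14.8% of all genes, with a median log2 difference of 0.32. Fasn, the fatty acid synthase gene, had 10.90, 11.005, 11.24, 11.30 and 12.02 in mammary gland, against 10.72, 10.68, 9.59, 12.07 and 12.18 in adipose tissue. The adipose arrays spread around the mammary ones, and the log2 difference was 0.25 (SE 0.33, adjusted p = 0.632). Without M52S, M57S, A42S, A44S and A48S, a repeat without the block chosen after seeing the data, the sign turned to a log2 difference of -1.08 (adjusted p = 0.0136). Srebf1, the transcription factor of lipogenic genes, had 10.26, 10.02, 10.59, 10.36 and 10.35 in mammary gland, against 6.67, 5.45, 6.25, 7.02 and 8.22 in adipose tissue, a log2 difference of 3.59 (SE 0.35, adjusted p = 0.000607). The desaturases split. Fads1, the delta-5 desaturase of polyunsaturated fatty acids, differed by 3.44 log2 units (adjusted p = 0.000301) and Fads2 by 2.35 (adjusted p = 0.000421). Scd, the delta-9 desaturase, had 11.44, 10.72, 8.58, 9.52 and 11.39 in mammary gland, against 12.61, 12.98, 12.18, 13.20 and 13.01 in adipose tissue, a log2 difference of -2.46 (SE 0.41, adjusted p = 0.00433). Elovl6, the elongase of saturated chains, differed by -3.64 log2 units (SE 0.62, adjusted p = 0.00480). Thus Fads1 and Fads2 were higher and Scd and Elovl6 lower in mammary gland, without overlap of the groups for any of the 4.

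Of 16 genes of triacylglycerol synthesis and lipid uptake, 2 were higher and 8 lower, beside 24.9% and 14.8% of all genes. Their median log2 difference was -1.01. The acyltransferases Agpat2 (-3.72 log2 units), Dgat2 (-2.99) and Dgat1 (-1.41) were lower, while Gpat4, the glycerol-3-phosphate acyltransferase counted in the milk fat list, was higher (2.90). Glycerol 3-phosphate can come from glucose through Gpd1 or from glycerol through glycerol kinase, Gk. Gpd1 differed by -2.38 log2 units (SE 0.30, adjusted p = 0.00154) and Gk by 2.90 (SE 0.34, adjusted p = 0.00115). Gk had 8.40, 8.37, 8.44, 8.29 and 7.73 in mammary gland, against 4.76, 5.78, 4.33, 6.31 and 5.55 in adipose tissue, without overlap. Lpl, the lipase that draws fatty acids from circulating triacylglycerol, was among the bright genes of both tissues, with 12.27 ± 0.24 in mammary gland and 12.52 ± 0.13 in adipose tissue (SD, n = 5 each), and was not called (adjusted p = 0.258).

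**Figure D3:**
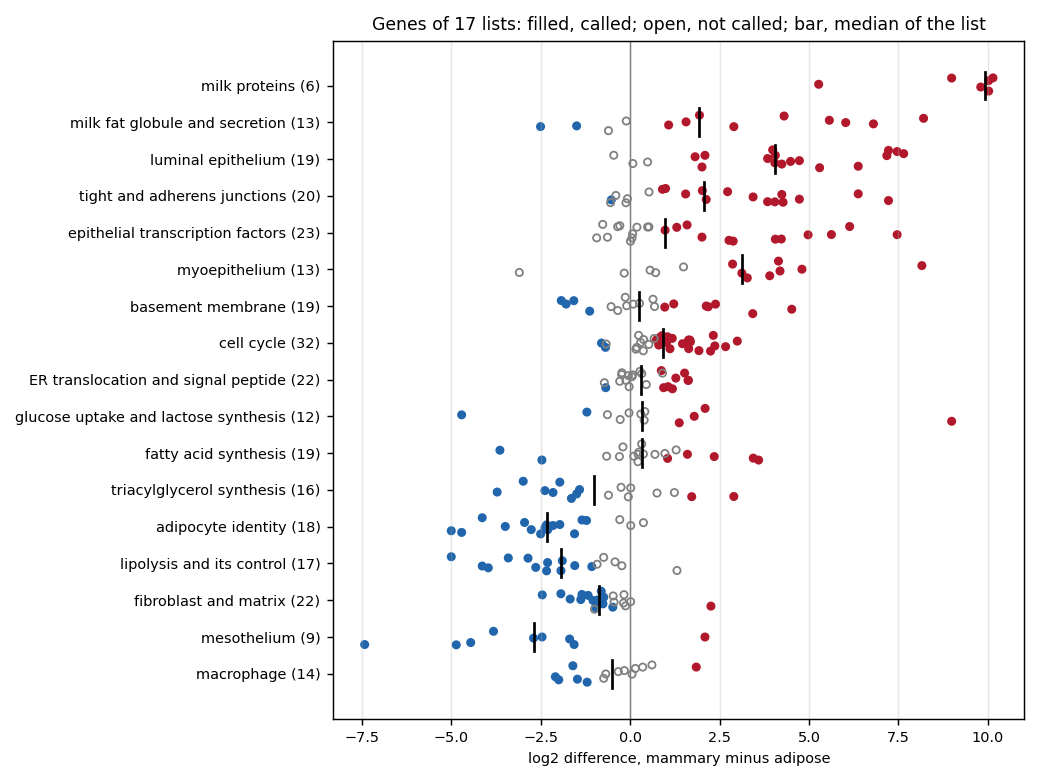
Log2 difference between mammary gland and adipose tissue (horizontal axis, positive where higher in mammary gland) for each gene of 17 lists, with the number of genes in brackets. Filled points were called in the limma fit (red where higher, blue where lower), open points were not, and the bar is the median of the list. Milk, luminal and junction lists lie to the right, the adipocyte, lipolysis and mesothelial lists to the left, and fatty acid synthesis on both sides.

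Mesothelial genes were lower in mammary gland. Of 9 genes 8 were lower and 1 was higher with all arrays, beside 14.8% and 24.9% of all genes. The higher one was the shared keratin Krt19, described above. The list averaged 5.33 to 5.57 in the mammary arrays and 7.03 to 9.50 in the adipose arrays. Wt1, a transcription factor of mesothelial cells, had 2.86, 2.88, 3.02, 2.86 and 2.73 in mammary gland, against 11.31, 11.23, 8.67, 10.69 and 9.54 in adipose tissue. It was dim in every mammary array and clearly above the medians in every adipose array, with A48S the lowest. Msln, the mesothelin gene, had 3.67, 3.94, 4.70, 4.07 and 3.40 in mammary gland, against 9.98, 9.16, 6.52, 8.65 and 7.75 in adipose tissue, a log2 difference of -4.45 (SE 0.58, adjusted p = 0.00172). Gpm6a, a membrane glycoprotein also found in neurons, differed by -4.86 log2 units and Bnc2, a zinc finger factor of mesenchyme, by -3.82. Upk1b, Bnc1, Lrrn4 and Clec3b were called lower as well. The adipose arrays ranked alike across these genes, in that A42S and A44S were the highest for Wt1, Gpm6a and Msln and A48S the lowest for the 3. Tm4sf4 and Chst4, given above, and Wfdc21 also had A48S lowest and A42S highest among the adipose arrays.

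Fibroblast and matrix genes were mostly lower. Of 22 genes 14 were lower in mammary gland and 1 was higher, beside 14.8% and 24.9% of all genes. Their median log2 difference was -0.86. Fn1, the fibronectin gene, differed by -1.93 log2 units (SE 0.19, adjusted p = 0.000622) and Col6a1, a chain of type VI collagen, by -1.67 (SE 0.22, adjusted p = 0.00175). Col1a1, the main fibrillar collagen chain, was not called, at 11.36 ± 0.33 in mammary gland and 11.55 ± 0.44 in adipose tissue (SD, n = 5 each). Thy1, a surface glycoprotein of fibroblasts, was the higher member, with 8.40, 8.27, 8.16, 8.58 and 8.25 in mammary gland, against 6.49, 6.49, 5.36, 5.68 and 6.34 in adipose tissue (log2 difference 2.26, SE 0.22, adjusted p = 0.000585). The count of lower genes was 4 in a repeat without M52S, M57S, A42S, A44S and A48S, chosen after seeing the data. Of 13 endothelial genes 3 were higher and 2 lower, near the 24.9% and 14.8% of all genes. The lower count was 1 without rat 44, 48 or 57 and without M52S, M57S and A48S. Without rat 57 the higher genes Plvap and Vwf and the lower gene Esam had adjusted p-values of 0.123, 0.0560 and 0.0742. The adjusted p of Plvap was also 0.0586 without rat 44, 0.0652 without rat 48 and 0.0675 without rat 52. The receptor Kdr was not called (10.31 ± 0.19 in mammary gland and 10.16 ± 0.73 in adipose tissue, SD, n = 5 each).

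Of 22 genes that move proteins into the endoplasmic reticulum, 8 were higher and 1 lower, and the lower count was 2 without rat 42 and 0 without rat 44, 52 or 57 and without M52S, M57S and A48S. Srp72 (1.62 log2 units) and Srp68 (1.52) of the signal recognition particle and Sec11c (1.63) of the signal peptidase were among the higher ones. Chaperones and the unfolded protein response had members on both sides, with 5 of 21 higher and 5 lower, beside 24.9% and 14.8% of all genes. Their lower count was 0 without rat 44, 2 without rat 52, 3 without rat 57 and 3 without M52S, M57S and A48S. Their higher count was 3 without rat 42, 44, 48 or 52. Xbp1, the transcription factor of secretory cells, had 11.65, 11.82, 11.64, 11.78 and 11.57 in mammary gland, against 9.01, 8.95, 8.58, 9.15 and 9.04 in adipose tissue. The mammary arrays were nearly equal and lay well above the adipose arrays, with a log2 difference of 2.75 (SE 0.14, adjusted p = 6.65e-05). The 14 cytosolic ribosomal protein genes had a median log2 difference of 0.09, with 2 called higher (4 without rat 57) and 0 lower (1 without rat 42).

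Glucose transporter genes differed by isoform. Of 12 genes of glucose uptake and lactose synthesis 4 were higher and 2 lower (1 lower without rat 44, 52 or 57), beside 24.9% and 14.8% of all genes. Slc2a1, the insulin-independent transporter GLUT1, had 11.13, 10.75, 10.17, 10.89 and 10.86 in mammary gland, against 8.84, 9.63, 7.70, 8.28 and 8.85 in adipose tissue, a log2 difference of 2.10 (SE 0.23, adjusted p = 0.000965). GLUT4, given above, ran the other way. B4galt1, the galactosyltransferase that pairs with alpha-lactalbumin, had 8.30, 6.96, 7.35, 7.57 and 7.15 in mammary gland, against 5.78, 5.61, 5.38, 6.05 and 5.54 in adipose tissue, a log2 difference of 1.79 (SE 0.20, adjusted p = 0.000933). Of 16 amino acid transporters 5 were higher and 4 lower, beside the same shares of all genes. The count of higher transporters was 3 without rat 48 or rat 57 and without M52S, M57S and A48S, and 2 without rat 52. Slc6a14, a broad transporter of neutral and cationic amino acids, differed by 2.48 log2 units and Slc3a2, the shared heavy chain of several transporters, by 1.09. Slc1a5, a glutamine transporter, differed by -2.30 (SE 0.32, adjusted p = 0.00225) and Slc16a10, which carries aromatic amino acids, by -2.71 log2 units.

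Cell division genes were mostly higher. Of 32 genes 21 were higher in mammary gland and 2 were lower, beside 24.9% and 14.8% of all genes. Their median log2 difference was 0.93. Mcm7, a subunit of the replicative helicase, had 8.74, 8.49, 9.06, 8.54 and 8.89 in mammary gland, against 6.57, 5.61, 6.49, 5.44 and 6.27 in adipose tissue, a log2 difference of 2.67 (SE 0.17, adjusted p = 0.000132). Ccna2, the cyclin of S phase and mitosis entry, had 5.17, 5.54, 6.11, 5.73 and 6.92 in mammary gland, against 3.14, 3.34, 3.46, 3.50 and 4.40 in adipose tissue, a log2 difference of 2.33 (SE 0.15, adjusted p = 0.000133). Mki67, the gene of the Ki-67 antigen, differed by 1.67 log2 units and Cdk1 by 2.25. M57S had the highest mammary value of Ccna2 and A57S the highest adipose value, so rat 57 was high in both tissues. Without M52S, M57S and A48S 13 of the genes were called higher and 2 lower, beside 2998 and 1833 of all 14217 genes. The lower count was 1 without rat 44 or rat 48 and 0 without rat 52.

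Chemokine and mucosal defence genes were called in both directions. Pigr, the receptor that carries IgA across epithelia into milk, had 11.14, 11.88, 11.84, 11.77 and 11.82 in mammary gland, against 3.20, 3.48, 2.83, 2.61 and 2.87 in adipose tissue. No adipose array came near the mammary arrays, M42S was the lowest of these, and the log2 difference was 8.69 (SE 0.21, adjusted p = 3.62e-06). The livers of the same rats averaged 11.95. Of 24 chemokine and mucosal defence genes 9 were higher and 5 lower (3 lower without rat 44 or rat 52), beside 24.9% and 14.8% of all genes. The lower genes were Ccl2, Ccl7, Cxcl12 and the protease inhibitor genes Slpi and Wfdc18. Slpi, an inhibitor of mucosal secretions that also acts against bacteria, differed by -2.20 log2 units (adjusted p = 0.0268) and Wfdc18 by -2.96 (adjusted p = 0.0236), and without rat 44 their adjusted p-values were 0.0935 and 0.0615. Without rat 52 these were 0.0634 and 0.0745. Lbp, which binds bacterial lipopolysaccharide, differed by 6.30 log2 units, Saa3, an acute phase protein found in milk, by 6.04, and Lcn2, which withholds iron from bacteria, by 5.60. Ccl2, the chemokine that attracts monocytes, had 4.86, 3.93, 3.95, 4.29 and 3.64 in mammary gland, against 9.14, 8.50, 6.18, 8.71 and 8.75 in adipose tissue, a log2 difference of -4.13 (SE 0.40, adjusted p = 0.000562). Ccl7 differed by -3.04 log2 units.

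Macrophage genes were mostly lower or not called, with 5 of 14 lower and 1 higher. Adgre1, an adhesion receptor gene of rodent macrophages, had 7.64, 8.15, 7.75, 8.04 and 7.81 in mammary gland, against 10.99, 10.09, 9.03, 10.31 and 9.41 in adipose tissue, a log2 difference of -2.09 (SE 0.30, adjusted p = 0.00239). C1qa, a complement gene of macrophages, differed by -1.99 log2 units and Mrc1, the mannose receptor, by -1.47. Cd14, the lipopolysaccharide co-receptor, was the higher member, with 10.24, 10.40, 10.40, 10.53 and 9.90 in mammary gland, against 8.87, 8.23, 7.63, 8.63 and 8.86 in adipose tissue (log2 difference 1.85, SE 0.26, adjusted p = 0.00224). The general markers Ctss and Lyz2 were not called. Of 15 antigen presentation genes 6 were higher, among them Tap1 (1.70 log2 units) and Tapbp (1.80) of class I loading, and 2 were lower, the class II genes RT1-Ba (-1.68) and RT1-Da (-1.54). Over the 22 repeats of the fit 3 to 7 were higher and 0 to 3 lower, with 4 higher without M52S, M57S and A48S. The counts of this paragraph stand beside 24.9% of all genes called higher and 14.8% called lower. Of 12 lymphocyte genes 2 were higher and 0 lower (4 higher without rat 42 or without A42S alone, and 1 higher without rat 44, 48, 52 or 57 and without M52S, M57S and A48S), and Cd3e, a T cell receptor chain, differed by 1.61 log2 units (SE 0.33, adjusted p = 0.00980).

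Counts in the remaining metabolic lists varied with the arrays used, and they stand beside 24.9% of all genes called higher and 14.8% called lower. Of 17 cholesterol genes 4 were lower in mammary gland and 0 were higher (1 higher without rat 57). Insig1, the sterol sensor partner, had 9.39, 7.99, 7.41, 8.26 and 9.51 in mammary gland, against 12.11, 11.90, 11.61, 12.48 and 12.46 in adipose tissue (log2 difference -3.60, SE 0.27, adjusted p = 0.000253). The count of lower genes was 2 without rat 44 and 2 without rat 52. Of 21 fatty acid oxidation genes 2 were higher and 5 lower, and the lower count was 1 without rat 52, 3 without rat 42, 3 without rat 57 and 3 without M52S, M57S and A48S, and the higher count was 1 without rat 52. Of 27 oxidative phosphorylation genes 1 was higher and 4 were lower, with 2 lower without rat 52 and 0 higher without rat 42, 52 or 57. S100b, a calcium binding protein of glia and adipocytes, was the largest deficit in the list of nerve and Schwann cell genes, at -3.18 log2 units (SE 0.24, adjusted p = 0.000246). Alb, the albumin gene, had 5.47, 4.54, 4.78, 11.75 and 10.78 in mammary gland, against 9.04, 5.96, 9.23, 9.02 and 11.07 in adipose tissue. Its high mammary values were in M52S and M57S, the arrays with hepatocyte markers, and it was not called with all arrays (adjusted p = 0.341). Without M52S, M57S and A48S its log2 difference was -3.74 (adjusted p = 0.0246).

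The lists of other cell types differed in how many genes were called. Of 19 hepatocyte genes 0 were higher and 0 lower with all arrays, and 0 were higher and 2 lower without M52S, M57S and A48S (1 lower without rat 52). Of 23 skeletal muscle genes 0 were higher and 1 lower, with 3 higher and 2 lower without rat 48 and without M52S, M57S and A48S, and 0 lower without rat 42, 52 or 57. The list of 11 keratinocyte genes had 1 higher member, Krt15, a keratin of basal epithelial cells, at 4.13 log2 units (SE 0.23, adjusted p = 8.52e-05), and 1 lower member without rat 48 and without M52S, M57S and A48S. Counts of higher and lower genes were 1 and 0 of 7 for plasma cells, 0 and 1 of 11 for mast cells and granulocytes, and 0 and 2 of 4 for erythrocytes. The lower count of mast cells and granulocytes was 0 without rat 52 or rat 57, that of erythrocytes was 1 without rat 42, 48 or 52 and 0 without rat 57, and both were 0 without M52S, M57S and A48S. The higher count of plasma cells was 2 without rat 42. The other counts were 1 and 2 of 8 for brown adipocytes, 1 and 1 of 15 for the interferon response and 2 and 4 of 8 for nerve and Schwann cells. Brown adipocyte genes had 0 higher without rat 42, 52 or 57, 2 higher without rat 48 and without M52S, M57S and A48S, and 1 lower without rat 48 or rat 52. Interferon genes had 3 lower without rat 48 and without M52S, M57S and A48S and 2 higher without rat 42, and nerve genes 1 higher without rat 42 or rat 52 and without M52S, M57S and A48S. Sox10, a transcription factor of Schwann cells that mammary epithelium also expresses, was the higher of the 2 at 6.14 log2 units, and S100b, which adipocytes also express, had the lowest value of the 4 at -3.18. Over all genes 24.9% were called higher and 14.8% lower.

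The comparison of mammary gland with adipose tissue was repeated in 5 other pregnant rats kept in hypergravity, which share no array with the rats above. There 10324 probe sets (33.3%) were called, 5077 (16.4%) higher and 5247 (16.9%) lower in mammary gland. The total was 6877 without rat 59, the count of higher probe sets 3381 without rat 50 and that of lower ones 3468 without rat 59. With arrays scaled on ribosomal protein genes 5011 were higher and 2123 lower, and the median over all probe sets moved to 0.43, against 0.02 as deposited. Of the genes 5721 (40.2%) were called, 3413 (24%) higher and 2308 (16.2%) lower. Genes called in the same direction in both sets numbered 4613, which is 81.8% of those called at standard gravity and 80.6% of those called in hypergravity. Of the 3533 genes higher at standard gravity 3513 had the same sign in hypergravity, and of the 2104 lower genes 2096 did. Of the 3533, 2 were called in the opposite direction in hypergravity, and of the 2104, 0. The 2 genes, named after their values were seen, were Irs2, which relays insulin signals (-0.99 log2 units in hypergravity, against 0.56 at standard gravity), and Sort1, a sorting receptor (-0.70 in hypergravity, against 0.77 at standard gravity). All 24 genes of the extremes were called again in the same direction. Across the 14217 genes, which are not independent replicates, the log2 differences of the 2 sets correlated with a Pearson r of 0.95 and a Spearman rho of 0.91. Hypergravity array M56H averaged 8.93 over the hepatocyte list and M50H 7.81 over the muscle list, against medians of 3.64 and 4.09 in that mammary group. Adipose array A55H averaged 5.47 over the milk protein list, 2.46 above the median of its group.

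Csn2 differed by 9.15 log2 units in hypergravity, against 10.02 at standard gravity (adjusted p = 0.000520 in hypergravity). Wt1 differed by -7.81 in hypergravity, against -7.42 at standard gravity (adjusted p = 4.35e-05 in hypergravity). Adrb3 differed by -5.55 in hypergravity, against -5.00 at standard gravity, and Slc2a4 by -3.42 in hypergravity, against -4.71 at standard gravity. The milk protein list had a median of 9.18 in hypergravity and the adipocyte list a median of -2.50. Of the 18 adipocyte genes 15 were lower there, beside 16.2% of all genes. Stat5a was not called in hypergravity, with a log2 difference of 0.19 (adjusted p = 0.875), while Pnpla2 was, with -2.05 (adjusted p = 0.00180). The difference between the tissue contrasts of the 2 gravities was tested directly as an interaction. It called 0 of 31042 probe sets (0%), and the smallest adjusted p was 0.999. It gave an unadjusted p under 0.05 for 1051 probe sets (3.39%), where chance gives about 1 in 20. Without M52S, M57S, A48S, M50H and M56H it called 2 probe sets, Il1r2, a decoy receptor for interleukin-1, and 1 probe set without a symbol.

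**Figure D4:**
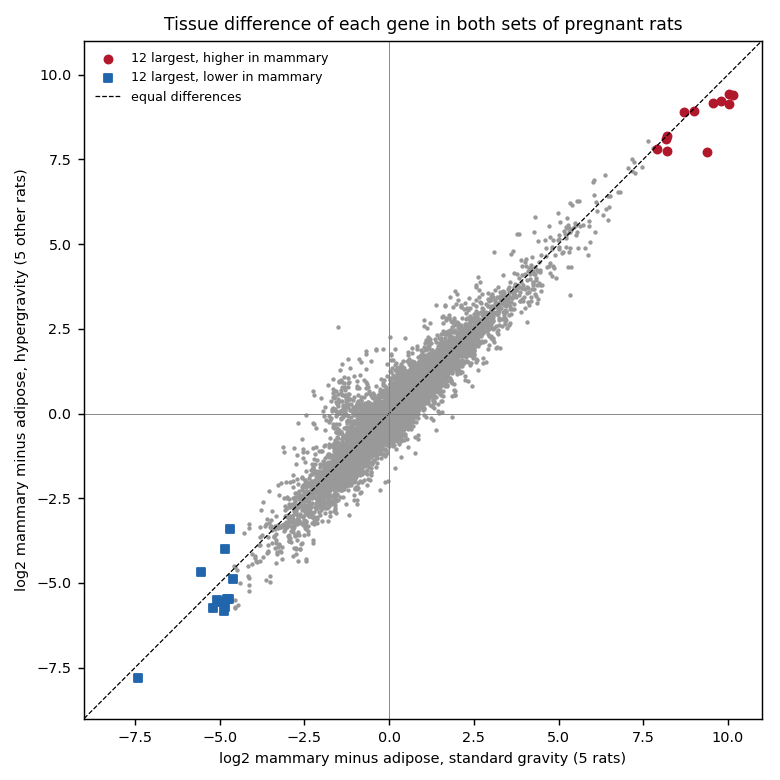
Log2 difference between mammary gland and adipose tissue of each of 14217 genes, at standard gravity (horizontal axis) and in hypergravity (vertical axis), in separate sets of 5 pregnant rats. Coloured points are the genes with the largest excess (circles) and deficit (squares) at standard gravity, and the dashed line marks equal differences.

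Many tissue differences were not equal in pregnancy and lactation. The difference between mammary gland and adipose tissue in lactation minus that in pregnancy was tested as an interaction over 20 arrays, the pregnant ones being those used above. It called 6284 probe sets (20.2%), 2765 (8.91%) upward and 3519 (11.3%) downward, and 3511 genes (24.7%), 1043 (7.34%) upward and 2468 (17.4%) downward. The casein genes were among those not called: for Csn2 the interaction was -0.27 log2 units (SE 0.25, adjusted p = 0.534), and for Wap it was 0.32 (SE 0.19, adjusted p = 0.302). Csn2 averaged 12.85 ± 0.11 in pregnant mammary gland and 12.93 ± 0.11 in lactating mammary gland (SD, n = 5 each). Lalba was called, with 1.51 (SE 0.28, adjusted p = 0.00391).

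Among the largest downward interactions were genes high in the pregnant gland alone of the 4 groups. Mlana, a gene known from melanocytes, averaged 9.07 ± 0.42 in pregnant mammary gland and 3.15 ± 0.10 in pregnant adipose tissue, and 3.36 ± 0.52 in lactating mammary gland and 3.25 ± 0.24 in lactating adipose tissue (SD, n = 5 each). Its pregnant arrays were 9.19, 9.33, 9.25, 9.24 and 8.32 in mammary gland, against 3.13, 3.03, 3.31, 3.12 and 3.14 in adipose tissue, and its interaction was -5.81 (SE 0.33, adjusted p = 1.29e-05). Card14, a scaffold of NF-kappaB signalling in keratinocytes, averaged 9.65 ± 1.41 in pregnant mammary gland and 4.18 ± 0.69 in pregnant adipose tissue, and 4.04 ± 1.22 in lactating mammary gland and 5.08 ± 0.25 in lactating adipose tissue (SD, n = 5 each). Its interaction was -6.50 (SE 0.82, adjusted p = 0.000628). Scara3 (-4.89, adjusted p = 0.000196), Ubd (-4.87, adjusted p = 0.00237) and Mt2A (-4.96, adjusted p = 0.000389) followed, where Ubd encodes a ubiquitin-like modifier and Mt2A a metallothionein.

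Rspo1, a secreted amplifier of Wnt signalling made by luminal cells under ovarian hormones in mice, had 8.79, 9.54, 9.65, 9.25 and 9.68 in pregnant mammary gland, against 7.33, 7.13, 4.43, 6.55 and 5.42 in pregnant adipose tissue. It was higher in mammary gland in every rat, by 3.21 log2 units (SE 0.53, adjusted p = 0.00427). In lactation it averaged 3.25 ± 0.16 in mammary gland and 6.49 ± 0.41 in adipose tissue (SD, n = 5 each), so the order of the tissues was turned round. The interaction was -6.44 log2 units (SE 0.60, adjusted p = 0.000180).

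The largest upward interaction was that of Atp2b2. Atp2b2 encodes the pump that loads milk with calcium, and it averaged 2.89 ± 0.37 in pregnant mammary gland and 3.44 ± 1.54 in pregnant adipose tissue, and 11.37 ± 0.20 in lactating mammary gland and 2.95 ± 0.63 in lactating adipose tissue (SD, n = 5 each). The interaction was 8.96 log2 units (SE 0.75, adjusted p = 0.000126). Lao1, an L-amino acid oxidase known from mouse milk, had an interaction of 6.49 (adjusted p = 1.29e-05), Prkaa2, a catalytic subunit of AMP-activated kinase, of 6.29 (adjusted p = 0.00319), and Gdap1 of 5.27 (adjusted p = 0.000180). Cidea and Folr1, lower or not called in the pregnant gland, had interactions of 5.51 (SE 0.68, adjusted p = 0.000579) and 5.38 (SE 0.56, adjusted p = 0.000284), and Cidea averaged 12.54 ± 0.13 in lactating mammary gland and 9.52 ± 0.80 in lactating adipose tissue (SD, n = 5 each).

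**Figure D5:**
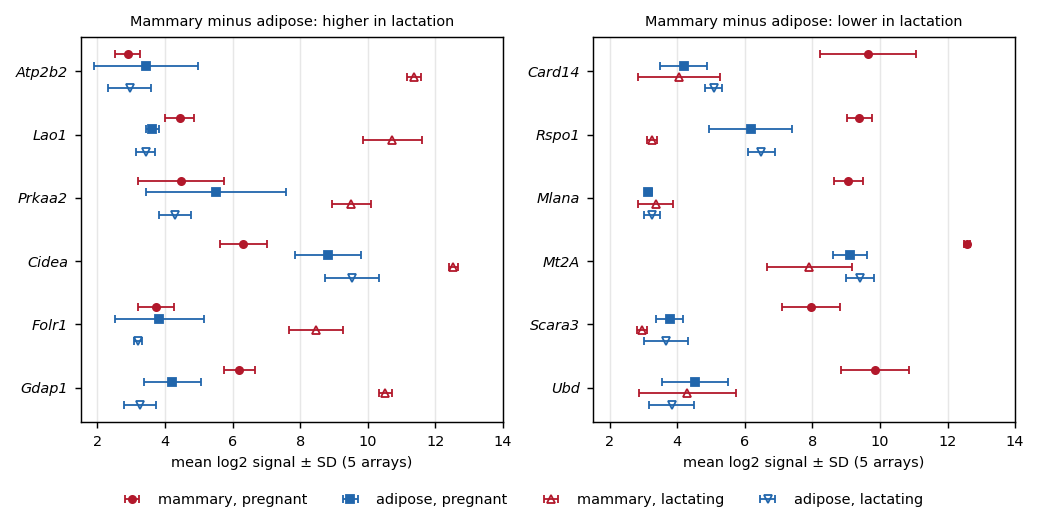
Mean log2 signal ± SD (5 arrays each) of the 6 genes with the largest upward (left panel) and downward (right panel) change of the tissue difference between pregnancy and lactation. Filled symbols are pregnant and open symbols lactating rats, red is mammary gland and blue adipose tissue. The left panel shows genes high in the lactating gland, the right panel genes high in the pregnant gland.

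By list, the stage interaction called 13 cell cycle genes upward and 1 downward, and 8 of 17 cholesterol genes upward and 0 downward. Of the adipocyte genes 2 were called upward and 3 downward, and of the luminal genes 1 upward and 8 downward. Of the basement membrane genes 0 were called upward and 7 downward, with Lama1 at -2.85 (SE 0.38, adjusted p = 0.000897) and Itgb4 at -2.52 (SE 0.34, adjusted p = 0.000925). These counts stand beside the 7.34% and 17.4% of all genes called upward and downward.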

How the data were processed

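RNA of mammary gland, adipose tissue and liver was hybridised to Affymetrix rat arrays after amplification of 25 ng, per the labels. The authors deposited log2 signals made with RMA, per the submitters' processing notes, and the version and genome build are not given in the sources used here. The arrays give no read depth, so their number limits the precision. All 31042 probe sets entered each fit, with limma 3.58.1 in R 4.3.3 (lmFit, eBayes, Benjamini-Hochberg adjustment, two-sided), with the rat as a block, and an adjusted p under 0.05 was called. The fits were also run on simulated data with independent normal noise, which do not imitate single arrays that carry markers of other cells. Tables and figures were made with Python 3.11.15. A single symbol was given by the platform annotation for 20826 probe sets, several for 436 and none for 9780, and 20758 of the single-symbol probe sets matched a RefSeq gene. 0 columns were left unused.

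Rats were paired by the code in the array title, which recurs across the tissues and was taken as the animal. Deviations from the group means correlated between the tissues of one code by 0.16 (rat 42), 0.00 (rat 44), 0.11 (rat 48), 0.13 (rat 52) and 0.11 (rat 57). For M44S an adipose array of another code correlated more highly than A44S. The same held for rat 59 in hypergravity and for lactating rats 201 and 202. The members and the 40 gene lists were chosen with earlier results of these data known, so no list was tested, and lists are given by counts and medians. Of the 762 list entries 670 had a probe set. Some genes belong to several lists, so the counts of those lists are not independent. Examples are Elf5 (luminal and transcription factor lists), Plin1 and Adrb3 (adipocyte and lipolysis lists) and Fabp4 and Gpd1 (adipocyte and triacylglycerol lists). Text names the 12 largest called differences in each direction whose groups do not overlap, up to 4 called members per list and direction, up to 2 bright members not called, a fixed set of tissue markers and 6 genes per interaction and direction. Other list members were named after their values were seen, to complete a group (Cdk1, Dgat1, Gata3, Gpat4, Grhl1, Itga6, Krt17, Lama3, Lama5, Lipe, Lpo, Mfge8, Mki67, Ocln, Plin2, Spdef, Stat5b, Tfap2a, Xdh, Kit and the remaining mesothelial genes). Alternatives were another or no block, leaving out rats or marked arrays, array weights, other thresholds, filters and scalings.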

Additional observations from a re-analysis of the deposited data

Results flagged for a closer look

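In 19 of 162 groups of 5 arrays 1 array stood apart by Dixon's criterion, where chance gives about 1 in 20. Among gene lists, the skeletal muscle mean was 12.005 in A48S, against at most 4.10 in the other adipose arrays, and the plasma cell mean was 5.56 in A42S, against at most 4.35. The keratinocyte mean was 3.93 in A42S and the hormone receptor mean 5.60 in A48S. In mammary gland the transcription factor mean was 7.03 in M42S, the fatty acid oxidation mean 7.52 in M57S, the IGF binding protein mean 7.28 in M52S and the fibroblast mean 8.43 in M48S.

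Among single genes, Lalba was 10.53 in M57S, against at least 12.07 in the other mammary arrays. Epcam was 10.42 in M57S and 5.12 in A44S, and Elf5 was 11.35 in M42S and 3.90 in A52S. Fabp4 was 11.86 and Pigr 11.14 in M42S, Krt8 was 10.63 in M44S, Gpm6a was 5.42 in M57S and Rcan2 was 4.60 in M48S. Pgr was 3.97 in A44S.

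The tissue difference of 12 genes, chosen as the largest, differed between the stages by the interaction test (limma, adjusted p under 0.05). Lactation minus pregnancy, it was 8.96 for Atp2b2, 6.49 for Lao1, 6.29 for Prkaa2, 5.51 for Cidea, 5.38 for Folr1 and 5.27 for Gdap1. It was -6.50 for Card14, -6.44 for Rspo1, -5.81 for Mlana, -4.96 for Mt2A, -4.89 for Scara3 and -4.87 for Ubd.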

How the results depend on the processing

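The counts of called probe sets at standard gravity stayed within 1.5 times of 10102 under all alternatives except 2: a threshold of 0.01 gave 5954 (3412 higher, 2542 lower), and leaving out M52S, M57S, A42S, A44S and A48S gave 6431 (3263 higher, 3168 lower), with 5 arrays left. Without the replicate block 10324 were called, and without 1 rat each 7518 to 9330 (4144 to 4875 higher, 3374 to 4577 lower). In hypergravity a threshold of 0.01 gave 5851 (2905 higher, 2946 lower), scaling on ribosomal protein genes gave 2123 lower (the cause was not tested), no replicate block gave 10071, and leaving out 1 rat gave 6877 to 11246 (3381 to 5526 higher, 3468 to 5720 lower). The interaction with gravity called 2 probe sets, 1 up and 1 down, without M52S, M57S, A48S, M50H and M56H, and 0 in the other settings, also with no replicate block. The interaction with stage called 5938 with no replicate block and 4797 to 6927 without 1 rat. Of the 192 called genes among 270 named by rule, 126 stayed called in every setting. The sign turned for Fasn (-1.08, adjusted p = 0.0136, without the 5 arrays) and for Canx (-0.61, adjusted p = 0.0430, mean of its probe sets), and the cause was not tested. Levels under the array medians limit folds of dim genes.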
